A study of Mus musculus with 6 samples.

Results

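The genes of glycolysis, the pentose phosphate pathway and the entry of pyruvate into mitochondria were taken as a list of 43 gene symbols. Of these, 42 were found among the 14774 genes of the deposited table by their symbol, and *Pdk2* was not analysed here. RNA of MA-10, a line of mouse tumor Leydig cells that served as the unedited wild type (WT), was compared with RNA of STARKO1 cells, with 3 libraries from each line. STARKO1 cells grew from a single MA-10 cell, sorted for a fluorescent reporter after transfection with Cas9 and 2 gRNAs to exon 2 of *Star*, and they carry a frameshift in that gene, which encodes the steroidogenic acute regulatory protein that moves cholesterol into mitochondria. No hormone was added to either line, and both were kept in the same medium with serum. Because STARKO1 is 1 clone, an effect of the *Star* mutation and a property of that clone cannot be told apart. The labels do not say whether the libraries of a line came from separate cultures, and the general remark of the study on independent experiments does not name the sequencing, so the p-values measure the spread between these libraries, which may be technical.

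Glycolysis splits glucose into pyruvate in the cytosol and yields ATP and NADH, and lactate dehydrogenase turns pyruvate into lactate to recover NAD+. The pentose phosphate pathway branches off at glucose 6-phosphate and yields NADPH, the reductant that steroid-making enzymes and cholesterol synthesis use, and ribose for nucleotides. Pyruvate enters mitochondria through the mitochondrial pyruvate carrier and is then oxidized by the pyruvate dehydrogenase complex or carboxylated by pyruvate carboxylase.

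Total counts lay between 14114349 and 19530054 per library, and a count of 3, the smallest that was read as a level, stood for at most 0.177 CPM in STARKO1 libraries (CPM, counts relative to the library size after TMM scaling). *Star*, the edited gene, was at 1064, 1261 and 697 counts in the MA-10 libraries, in the order of replicates 1, 2 and 3 that is used throughout, and at 48, 46 and 36 in STARKO1. MA-10 replicate 1 stood apart from the other MA-10 libraries. Its log2 CPM had a Pearson's r of 0.802 and 0.874 with MA-10 replicates 2 and 3 but of 0.949 to 0.955 with the STARKO1 libraries, over 8538 genes that are not independent replicates. The noncoding 7SL RNA made up 1.81%, 14.4% and 6.63% of MA-10 counts and 1.82% to 2.37% of STARKO1 counts. The gene *Gm26917* went the other way, with 8.71%, 0.571% and 1.63% of MA-10 counts and 4.97% to 6.03% of STARKO1 counts. The part of these shares in the results was not tested. All 10 Leydig cell markers were found, and 2 of them, *Star* and *Hsd3b1*, were called lower in STARKO1, beside 4.74% of all genes tested. The markers did not move one way. Every STARKO1 library lay below every MA-10 library for 4 of the 10, beside 21% of all genes. They lay above them for 3, *Cyp17a1*, *Nr5a1* and *Fdxr*, beside 21.5%. DESeq2 called 3 lower and 2 higher, beside 17.4% and 11% of all genes. Of other testis cell types, 3 of 7 Sertoli cell markers, 1 of 7 germ cell markers, 3 of 6 macrophage markers and 2 of 6 peritubular and fibroblast markers were found. Their summed levels in MA-10 and STARKO1 libraries were 337 to 529 and 574 to 597 CPM for Sertoli cell markers, nearly all of it *Rhox5*. They were 2.2 to 3.55 and 1.91 to 2.83 CPM for the germ cell marker *Ddx4*, and 5.38 to 10.1 and 6.66 to 8.69 CPM for macrophage markers, mostly *Csf1r*. The peritubular and fibroblast sum was 3.12 to 7.66 and 0.337 to 0.43 CPM, of which *Pdgfra*, called lower, had 0, 2 and 1 counts in STARKO1 (adjusted p = 0.00595, and 0.0535 without STARKO1 replicate 3). *Pdgfra* passed the filter on low counts only through its MA-10 libraries, with 103, 32 and 76 counts. It was the 1 gene of its list that was tested, beside 4.74% of all genes called lower. These are bulk samples of a cell line and of a clone of it, so the marker levels do not show that cells of another type were present. Fewer cells of a culture that make an RNA and less of that RNA per cell cannot be told apart.

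Along the pathway, 1 of the 42 genes was called between MA-10 and STARKO1 cells, that is, had an adjusted p under 0.05 (Benjamini-Hochberg over 11939 genes) in the quasi-likelihood test of edgeR. It was *G6pc3*, lower in STARKO1, which makes 2.38% of the list, against 9.04% of all genes tested and 4.74% called lower. None was called higher, against 4.3% of all genes, while 7 of the 42 were higher at an unadjusted p under 0.05 (15% of all genes) and 4 were called higher by DESeq2 (11% of all genes). In both directions together, 13 of the 42 had an unadjusted p under 0.05 (31%), against 37.6% of all genes. The lines did not overlap, with each library of one above each of the other, for 17 of the 42 (40.5%), 8 of them higher and 9 lower in STARKO1, against 42.5% of all genes, 21.5% higher and 21% lower. The median log2 difference, STARKO1 minus MA-10, was -0.08 over the 42 genes, also with *G6pc3* set at its bound, and -0.05 over all genes. All 42 passed the filter on low counts, and *G6pc3* passed only through its MA-10 libraries.

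**Figure D1:**
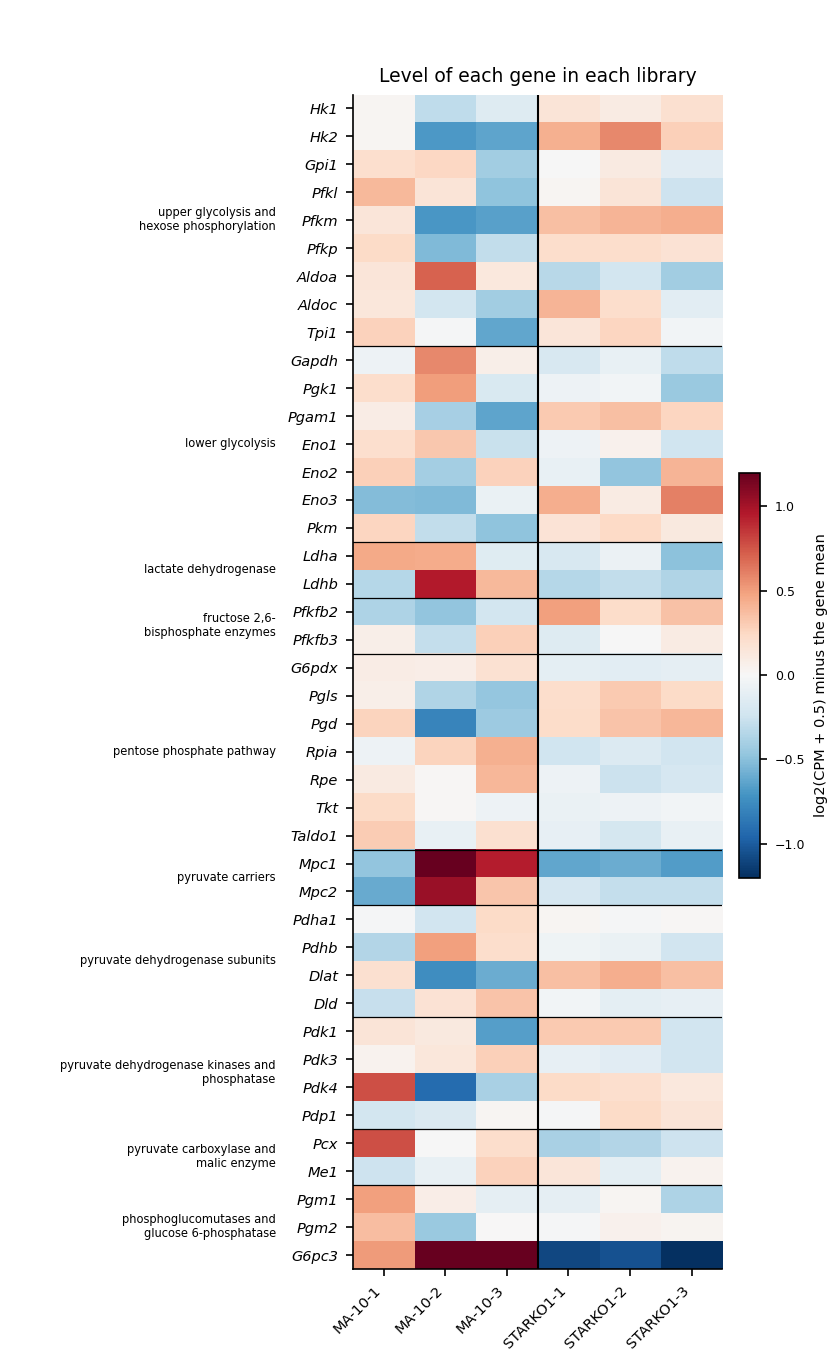
Level of each of the 42 genes (rows, in pathway order) in each of the 6 libraries (columns), as log2(CPM + 0.5) minus the mean of that gene over the libraries; red is above and blue is below the mean, and the colors end at the limits of the bar. For 25 of the 42 genes, MA-10 replicate 1 lies nearer to the STARKO1 mean than to the mean of MA-10 replicates 2 and 3 (59.5%), against 69.7% of all genes tested.

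The number of genes called turned on MA-10 replicate 1. Without it, 23 of the 42 genes were called (54.8%), 14 higher and 9 lower in STARKO1, against 65.7% of all genes, 34% higher and 31.7% lower. All 23 had the sign they had with 6 libraries. In library composition MA-10 replicate 1 was the MA-10 library nearest to STARKO1. The TMM factors were 1.16, 0.654 and 0.805 in MA-10 and 1.17 to 1.19 in STARKO1. The share of 7SL RNA and the trend with gene length, given below, split the libraries in the same way. Without MA-10 replicate 1, the cell line and these traits of the libraries therefore cannot be told apart. With any other library left out, 0 or 1 of the 42 was called, against 0.73% to 4.19% of all genes, and it was 0 without STARKO1 replicate 1, 2 or 3. DESeq2 on all 6 libraries called 8 of the 42 (19%), against 28.4% of all genes. They were *Hk2*, *Pfkm*, *Eno3* and *Pfkfb2*, which were higher in STARKO1, and *G6pc3*, *Aldoa*, *Mpc1* and *Pcx*, which were lower. With 6 libraries, the 95% interval of the log2 difference held 0 for 29 of the 41 genes other than *G6pc3*, and for 25 of the 41 it lay within a change of 1 in either direction. The standard errors ran from 0.147 to 0.489. A p that misses the threshold therefore does not show that a gene was alike in both lines.

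**Figure D2:**
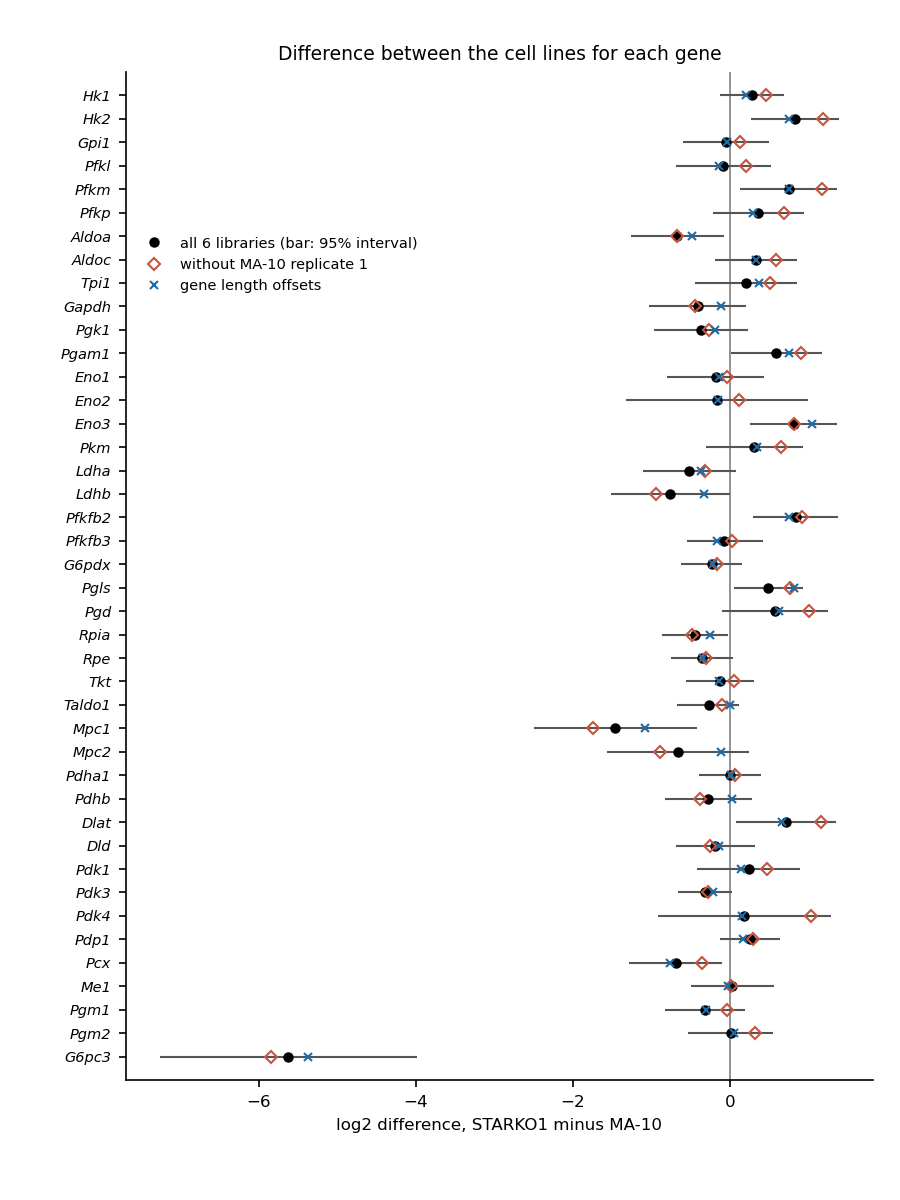
Log2 difference, STARKO1 minus MA-10 (horizontal axis), of each of the 42 genes; black points with bars are the estimates from all 6 libraries with 95% intervals, open diamonds the estimates without MA-10 replicate 1, and crosses those with offsets for gene length. *G6pc3* lies far to the left at -5.63, a value that depends on a prior count because STARKO1 libraries have 0 or 1 counts, and the other genes lie between -1.46 and 0.84.

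*G6pc3* encodes the ubiquitous catalytic subunit of glucose 6-phosphatase, an enzyme of the endoplasmic reticulum that removes the phosphate which hexokinase adds. It is known for a role in neutrophils, where it clears the toxic metabolite 1,5-anhydroglucitol 6-phosphate. The gene (ENSMUSG00000034793.15) lies on the plus strand of GRCm38 at chr11:102189620-102194081. It was detected at 20, 31 and 28 counts in MA-10 and at 1, 1 and 0 counts in STARKO1. On the CPM scale these levels were 1.15, 2.69 and 2.47 in MA-10 and 0.043, 0.0589 and 0 in STARKO1. All MA-10 libraries lay above all STARKO1 libraries, and every STARKO1 library was under the floor of 3 counts. The mean of MA-10, 2.1 ± 0.834 CPM (SD, n = 3), was at least 11.9-fold above the highest level that 3 counts stand for in a STARKO1 library. The adjusted p was 0.00779, and 0.0677, 0.0509 and 0.0535 without STARKO1 replicate 1, 2 or 3, with fitted log2 differences of -5.73, -6.03 and -5.17, which depend on the prior count. Of all genes, 0.73%, 1.11% and 0.76% were called in these fits.

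The promoter of *G6pc3* is shown because this gene was the one called, next to those of *Hk2*, which had the lowest adjusted p among the enzymes of glycolysis itself, and of *Gapdh*, the housekeeping gene of the qRT-PCR in this study. Each holds 250 bases before and 50 bases after the RefSeq start site in GRCm38.p6, read on the strand of the gene. Capitals mark ACGTG or its reverse complement, a form of the core of the element that hypoxia-inducible factors bind. Other forms of that core were not marked or counted. Where ACGTG extends to CACGTG, it is also the E-box of MYC, USF and ChREBP, the carbohydrate-response element binding protein. *Hk2* and *Gapdh* were chosen for display after their values were seen. The windows are *G6pc3* at chr11:102189449-102189748 (plus strand), *Hk2* at chr6:82774405-82774704 (minus strand) and *Gapdh* at chr6:125165724-125166023 (minus strand).
G6pc3: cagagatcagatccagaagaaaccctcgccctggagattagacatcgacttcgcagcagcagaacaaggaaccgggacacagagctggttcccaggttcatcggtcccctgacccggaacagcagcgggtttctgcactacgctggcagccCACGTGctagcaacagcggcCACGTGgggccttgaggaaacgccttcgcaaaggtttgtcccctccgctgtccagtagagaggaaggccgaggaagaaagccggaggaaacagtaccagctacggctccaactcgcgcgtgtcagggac
Hk2: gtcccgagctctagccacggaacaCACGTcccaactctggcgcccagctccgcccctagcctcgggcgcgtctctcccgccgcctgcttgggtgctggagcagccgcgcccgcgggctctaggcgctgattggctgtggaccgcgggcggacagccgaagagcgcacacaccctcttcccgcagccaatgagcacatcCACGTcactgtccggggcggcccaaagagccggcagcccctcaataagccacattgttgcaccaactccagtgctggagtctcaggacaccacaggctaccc
Gapdh: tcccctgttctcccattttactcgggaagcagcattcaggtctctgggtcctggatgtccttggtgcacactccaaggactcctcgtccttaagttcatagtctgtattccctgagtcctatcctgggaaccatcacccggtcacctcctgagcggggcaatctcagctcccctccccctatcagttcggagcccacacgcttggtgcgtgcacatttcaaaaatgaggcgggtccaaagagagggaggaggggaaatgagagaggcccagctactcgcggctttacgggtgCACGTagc
In *G6pc3* both stretches were CACGTG, and they started 99 and 79 bases before the start site. The stretches in *Hk2* started 226 and 52 bases before it, and the one in *Gapdh* 42 bases after it. A promoter window was found for 41 of the 42 genes, 60 windows in all. ACGTG on either strand was in 24 of these 60 (40%), against 25.6% of the windows of genes in the deposited table and 19.6% of all 32851 windows. CACGTG was in 6 of the 60 (10%), against 10% and 7.15%. These matches describe the letters only.

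The neighbours of *G6pc3* on chromosome 11 were examined next. *Lsm12*, which encodes an Sm-like protein, ends before *G6pc3* at chr11:102162497-102185296 and had 101, 203 and 198 CPM in MA-10 and 125, 122 and 119 CPM in STARKO1 (adjusted p = 0.263). *Hdac5*, a histone deacetylase gene that starts after it at chr11:102194432-102230166, had 60, 34.1 and 35.6 CPM in MA-10 and 44.7, 47.9 and 44.5 CPM in STARKO1 (adjusted p = 0.827). The libraries of the lines overlapped for both neighbours. Both lie on the minus strand and neither overlaps *G6pc3*. All 6 values of *G6pc3* in the deposited table were whole numbers, as for 13 of the 42 genes, whereas fractions of a read occurred in 1 or more libraries for the other 29. How reads shared with similar copies or overlapping genes were counted is not stated, and where the fractions come from was not tested, so levels of genes with close copies are uncertain.

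**Figure D3:**
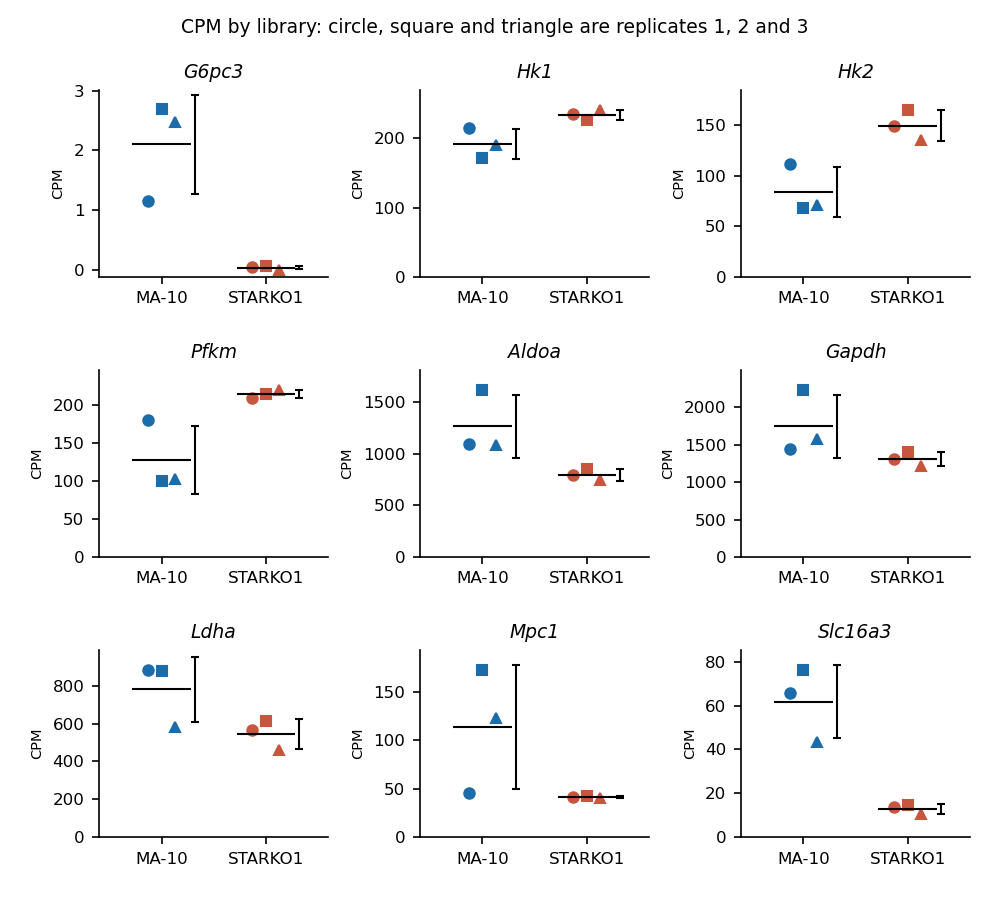
CPM (vertical axes, each from about 0) of 8 genes of the list and of the lactate exporter gene *Slc16a3* in each library; blue is MA-10, red is STARKO1, horizontal lines are means and bars are SDs over 3 libraries. The STARKO1 libraries lie close together, while MA-10 replicate 1 (circle) lies nearer to STARKO1 than the other MA-10 libraries do for *G6pc3*, *Hk1*, *Hk2*, *Pfkm*, *Gapdh* and *Mpc1*.

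The first part of glycolysis phosphorylates glucose and splits it into triose phosphates. None of its 9 genes was called by edgeR, while 3 had an unadjusted p under 0.05 and 3 were called by DESeq2 (*Hk2*, *Pfkm* and *Aldoa*). Here and in the steps that follow, such counts stand beside 37.6% of all genes with an unadjusted p under 0.05 and 28.4% called by DESeq2. Hexokinase 2 (*Hk2*, chr6:82725025-82774454), the insulin-responsive isozyme that sits on the mitochondrial surface and is high in many tumors, was measured at 112, 68.4 and 71.2 CPM in MA-10 and at 149, 165 and 135 CPM in STARKO1. Every STARKO1 library was above every MA-10 library, with a log2 difference of 0.83 (95% interval 0.27 to 1.39, adjusted p = 0.0658), and of 1.19 without MA-10 replicate 1 (adjusted p = 0.000119). Hexokinase 1 (*Hk1*), the constitutive isozyme, was at 215, 171 and 190 CPM in MA-10 and at 235, 226 and 241 CPM in STARKO1, again without overlap (log2 difference 0.28 ± 0.17, SE, adjusted p = 0.25). Glucose 6-phosphate isomerase (*Gpi1*) had a log2 difference of -0.05 (adjusted p = 0.882), whose sign depended on the scaling.

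Phosphofructokinase commits sugar to glycolysis, and its subunits come from 3 genes. The muscle-type gene *Pfkm* (chr15:98092589-98132451) had 180, 100 and 103 CPM in MA-10 and 209, 215 and 220 CPM in STARKO1, which did not overlap (log2 difference 0.75, 95% interval 0.13 to 1.37, adjusted p = 0.093, and 1.17 with adjusted p = 6.47e-05 without MA-10 replicate 1). The platelet-type gene *Pfkp* was at 512, 302 and 356 CPM in MA-10 and at 506, 505 and 492 CPM in STARKO1, and the liver-type gene *Pfkl* at 141, 120 and 77 CPM and at 109, 120 and 90.5 CPM. Both overlapped between the lines, with an adjusted p of 0.299 for *Pfkp* and of 0.818 for *Pfkl*. MA-10 replicate 1 was the highest MA-10 library for all 3 genes, but it was below every STARKO1 library for *Pfkm* and above them all for *Pfkp* and *Pfkl*.

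Aldolase A (*Aldoa*) was the most abundant gene of this step group by CPM. It had 1096, 1616 and 1081 CPM in MA-10 and 790, 851 and 742 CPM in STARKO1. The lines did not overlap, and the log2 difference was -0.67 (95% interval -1.26 to -0.08, adjusted p = 0.103, and -0.67 with adjusted p = 0.00837 without MA-10 replicate 1). Its brain-type paralog *Aldoc* was at 39.3, 30.7 and 26.7 CPM in MA-10 and at 47.7, 41.5 and 32.6 CPM in STARKO1, and the lines overlapped (adjusted p = 0.292). Triosephosphate isomerase (*Tpi1*) had a log2 difference of 0.20 (adjusted p = 0.594).

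The second part of glycolysis yields ATP and pyruvate. None of its 7 genes was called by edgeR, while 2 had an unadjusted p under 0.05 and DESeq2 called *Eno3*. *Gapdh*, which makes NADH by oxidizing glyceraldehyde 3-phosphate, had 1439, 2231 and 1574 CPM in MA-10 and 1315, 1408 and 1214 CPM in STARKO1. Its libraries did not overlap, but its log2 difference of -0.41 had an interval of -1.03 to 0.20 (adjusted p = 0.27), and the difference was 0.08 when libraries were scaled by library size alone, where the median of all genes was 0.43 higher, and -0.11 with offsets for gene length. Set against *Gapdh* within a library, *Star* had 0.0423, 0.049 and 0.039 counts per *Gapdh* count in MA-10 and 0.00157, 0.00193 and 0.00167 in STARKO1.

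Enolase 1 (*Eno1*), the most abundant gene of the list by CPM, was at 2126, 2317 and 1536 CPM in MA-10 and at 1776, 1921 and 1569 CPM in STARKO1, with overlap (adjusted p = 0.617). The muscle-type enolase gene *Eno3* was far lower, at 4.47, 4.42 and 6.25 CPM in MA-10 and 9.12, 7.13 and 10.3 CPM in STARKO1. It did not overlap between the lines, and its log2 difference was 0.81 (95% interval 0.25 to 1.37, adjusted p = 0.0684). The neuronal enolase gene *Eno2* was at 1.15, 0.52 and 1.14 CPM in MA-10 and at 0.774, 0.472 and 1.29 CPM in STARKO1, with overlap (adjusted p = 0.822). Phosphoglycerate mutase 1 (*Pgam1*) did not overlap, at 343 to 567 CPM in MA-10 and 636 to 686 CPM in STARKO1 (log2 difference 0.59, adjusted p = 0.126, and 0.91 with adjusted p = 0.000344 without MA-10 replicate 1). Pyruvate kinase (*Pkm*, 0.31) and phosphoglycerate kinase (*Pgk1*, -0.37) had log2 differences with adjusted p = 0.397 and adjusted p = 0.304.

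The lactate dehydrogenase subunits come from *Ldha*, the form that favors lactate, and *Ldhb*, the form that favors pyruvate. *Ldha* was at 883, 877 and 584 CPM in MA-10 and at 566, 615 and 459 CPM in STARKO1. STARKO1 replicate 2 lay above MA-10 replicate 3, so the lines overlapped (log2 difference -0.52 ± 0.252, SE, adjusted p = 0.177). *Ldhb* was at 134, 329 and 224 CPM in MA-10 and at 134, 139 and 133 CPM in STARKO1 (log2 difference -0.76, adjusted p = 0.133). MA-10 replicate 1 had the STARKO1 level of *Ldhb*, and without that library the adjusted p was 0.000956 for *Ldhb* and 0.163 for *Ldha*.

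The level of fructose 2,6-bisphosphate, which activates phosphofructokinase, is set by the PFKFB enzymes. *Pfkfb3*, the form with the strongest kinase activity, was at 10.9, 8.41 and 12.7 CPM in MA-10 and at 9.25, 10.3 and 11.1 CPM in STARKO1, with overlap (adjusted p = 0.828). *Pfkfb2*, the heart-type form, was lower in level, at 2.18, 1.99 and 2.47 CPM in MA-10 and 4.39, 3.54 and 3.93 CPM in STARKO1. It did not overlap, and MA-10 replicate 1 lay with the other MA-10 libraries (log2 difference 0.84, 95% interval 0.30 to 1.38, adjusted p = 0.0614). *Pfkfb2* had the lowest adjusted p of the list after *G6pc3*.

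The pentose phosphate pathway has an oxidative branch, which yields NADPH, and a branch that rearranges sugars. None of its 7 genes was called by edgeR or DESeq2, and 2 had an unadjusted p under 0.05. Glucose 6-phosphate dehydrogenase (*G6pdx*), the first enzyme of the oxidative branch, was at 299, 298 and 321 CPM in MA-10 and at 260, 259 and 261 CPM in STARKO1. The lines did not overlap and the difference was small, with a log2 difference of -0.23 (95% interval -0.62 to 0.15, adjusted p = 0.306) that was 0.20 when scaled by library size alone. The next enzymes of this branch, 6-phosphogluconolactonase (*Pgls*) and 6-phosphogluconate dehydrogenase (*Pgd*), had log2 differences of 0.49 (adjusted p = 0.109) and 0.57 (adjusted p = 0.182), opposite in sign to *G6pdx*. Without MA-10 replicate 1 both were called, at 0.76 (adjusted p = 0.000481) and 1.01 (adjusted p = 0.000585). Transketolase (*Tkt*), the most abundant gene of the pathway by CPM, was at 558, 482 and 457 CPM in MA-10 and at 450, 458 and 465 CPM in STARKO1, with overlap (adjusted p = 0.632). Ribose 5-phosphate isomerase (*Rpia*) and ribulose 5-phosphate epimerase (*Rpe*) did not overlap, with log2 differences of -0.44 (adjusted p = 0.121) and -0.36 (adjusted p = 0.163). Transaldolase (*Taldo1*) had -0.27 (adjusted p = 0.259). All 3 lay above 0 when scaled by library size alone, by less than its shift of the median. Without MA-10 replicate 1, *Rpia* was also called, at -0.48 (adjusted p = 0.00781). In that fit 2 of the 7 genes were called higher and 1 lower, beside 34% and 31.7% of all genes.

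Pyruvate crosses the inner mitochondrial membrane through a carrier made of MPC1 and MPC2. *Mpc1* (chr17:8282904-8297661) was at 45.8, 172 and 123 CPM in MA-10 and at 41.3, 42.1 and 40 CPM in STARKO1. The libraries did not overlap, yet MA-10 replicate 1 was close to STARKO1 and well under the other MA-10 libraries. The log2 difference was -1.46 (95% interval -2.50 to -0.42, adjusted p = 0.0724), and -1.74 without MA-10 replicate 1 (adjusted p = 3.26e-05). *Mpc2* was at 38.3, 120 and 73.8 CPM in MA-10 and at 50.8, 47.8 and 47.8 CPM in STARKO1, where MA-10 replicate 1 lay below every STARKO1 library. Its log2 difference was -0.66 (adjusted p = 0.234), and -0.89 without MA-10 replicate 1 (adjusted p = 0.00263). With offsets for gene length the log2 differences were -1.08 for *Mpc1* (adjusted p = 0.0667) and -0.11 for *Mpc2* (adjusted p = 0.723).

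The pyruvate dehydrogenase complex converts pyruvate to acetyl-CoA. None of its 4 subunit genes was called by edgeR or DESeq2, and 1 had an unadjusted p under 0.05. That was *Dlat*, the acetyltransferase core, at 57.3, 29.6 and 32.9 CPM in MA-10 and at 64.6, 67.8 and 64.6 CPM in STARKO1 (log2 difference 0.71, 95% interval 0.08 to 1.35, adjusted p = 0.105, and 1.16 with adjusted p = 8.93e-05 without MA-10 replicate 1). The lines did not overlap for *Dlat*, with MA-10 replicate 1 nearest to STARKO1. Dihydrolipoamide dehydrogenase (*Dld*), the most abundant subunit gene by CPM and shared with other complexes, was at 220, 302 and 339 CPM in MA-10 and at 261, 247 and 250 CPM in STARKO1, with overlap (adjusted p = 0.532). The E1 subunit genes *Pdha1* and *Pdhb* overlapped too (adjusted p = 0.999 and 0.403), and the 95% interval of *Pdha1* ran from -0.40 to 0.40.

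The complex is switched off by the pyruvate dehydrogenase kinases and switched on by phosphatases. None of the 3 kinase genes and the phosphatase gene *Pdp1* was called by edgeR or DESeq2, and none had an unadjusted p under 0.05. *Pdk1* was at 100, 97.9 and 56.6 CPM in MA-10 and at 112, 112 and 76.5 CPM in STARKO1, with overlap (adjusted p = 0.541). *Pdk3* did not overlap, at 44.3, 47.3 and 52.5 CPM in MA-10 and 40.1, 39.1 and 36.5 CPM in STARKO1 (log2 difference -0.32 ± 0.147, SE, adjusted p = 0.161). *Pdk4*, the kinase of fasting, was at 7.33, 1.91 and 2.99 CPM in MA-10 and at 4.86, 4.77 and 4.49 CPM in STARKO1, with MA-10 replicate 1 above and the other MA-10 replicates below every STARKO1 library. Its log2 difference was 0.18 (adjusted p = 0.788), and 1.03 without MA-10 replicate 1, where it was called (adjusted p = 0.00681). *Pdp1* had a log2 difference of 0.26 (adjusted p = 0.271).

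Pyruvate carboxylase (*Pcx*) makes oxaloacetate from pyruvate, and malic enzyme 1 (*Me1*) makes pyruvate and NADPH from malate in the cytosol. *Pcx* (chr19:4510472-4621752) was at 780, 456 and 530 CPM in MA-10 and at 350, 359 and 386 CPM in STARKO1, with no overlap. Here MA-10 replicate 1 lay farthest from STARKO1. The log2 difference was -0.69 (95% interval -1.28 to -0.10, adjusted p = 0.0998), and -0.35 without MA-10 replicate 1 (adjusted p = 0.0407). *Me1* was at 558, 623 and 802 CPM in MA-10 and at 732, 611 and 683 CPM in STARKO1, with overlap (95% interval of the log2 difference -0.50 to 0.56, adjusted p = 0.929). The phosphoglucomutases join glycolysis to glycogen. *Pgm1* was at 152, 114 and 99.8 CPM in MA-10 and at 99.8, 110 and 83.2 CPM in STARKO1 (adjusted p = 0.298), and *Pgm2* had a log2 difference of 0.01 (adjusted p = 0.987).

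Levels of different genes were compared per kb of exon. In MA-10 cells *Gapdh* was highest at 1169 ± 283 CPM per kb (SD, n = 3), followed by *Eno1* at 783 ± 160, *Aldoa* at 693 ± 167, *Ldha* at 412 ± 90.3, *Pgk1* at 385 ± 89 and *Pkm* at 362 ± 100. In STARKO1 cells the order was *Gapdh* at 878 ± 64.9 CPM per kb, *Eno1* at 689 ± 69.5, *Pkm* at 449 ± 18.2, *Aldoa* at 435 ± 30 and *Pgam1* at 373 ± 14.1. In MA-10 cells the ranges of mean ± SD overlapped between neighbours in this order, except between *Aldoa* and *Ldha*, and in STARKO1 cells they overlapped only between *Pkm* and *Aldoa* among the 5 genes given. At the low end was *Eno2*, with 0.335 ± 0.129 CPM per kb in MA-10 and 0.303 ± 0.148 in STARKO1 among genes other than *G6pc3*. The 42 genes together made up 1.59%, 0.94% and 0.922% of MA-10 counts and 1.44%, 1.47% and 1.32% of STARKO1 counts.

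Ratios of isozymes within a library do not depend on the scaling between libraries, but they can depend on the trend with gene length given below. *Hk2* had 0.521, 0.4 and 0.375 counts per count of *Hk1* in MA-10 and 0.632, 0.73 and 0.56 in STARKO1. *Pfkm* had 1.27, 0.833 and 1.34 counts per count of *Pfkl* in MA-10 and 1.92, 1.8 and 2.44 in STARKO1. *Aldoc* had 0.0359, 0.019 and 0.0247 counts per count of *Aldoa* in MA-10 and 0.0604, 0.0488 and 0.0439 in STARKO1. For these 3 pairs every STARKO1 library was above every MA-10 library, MA-10 replicate 1 included. The exon lengths were 5614 and 4852 bases for *Hk2* and *Hk1*, 2999 and 3730 for *Pfkm* and *Pfkl*, and 2976 and 1824 for *Aldoc* and *Aldoa*. The part of length in these ratios was not tested. No share was computed for other pairs of genes, and 42.5% of all single genes did not overlap. *Mpc1* had 1.2, 1.43 and 1.66 counts per count of *Mpc2* in MA-10 and 0.814, 0.882 and 0.837 in STARKO1, without overlap, a pair chosen after its values were seen. The lines overlapped for *Pfkp* to *Pfkl*, *Eno2* to *Eno1*, *Eno3* to *Eno1* and *Ldhb* to *Ldha*, and for the share of each of the 3 kinase genes in their summed counts. *Pdk1* held most of that sum, with 50.5% to 66.6% in MA-10 and 65.1% to 71.9% in STARKO1.

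**Figure D4:**
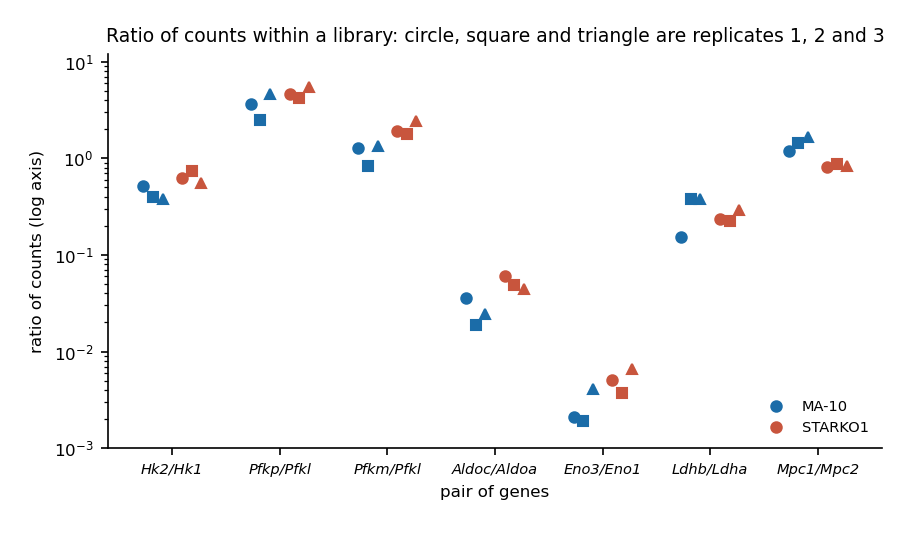
Ratio of the counts of a pair of genes within each library (vertical axis, log scale) for 7 pairs (horizontal axis); blue is MA-10 and red is STARKO1. The lines are apart for *Hk2* to *Hk1*, *Pfkm* to *Pfkl*, *Aldoc* to *Aldoa* and *Mpc1* to *Mpc2*, and overlap for the other pairs.

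The differences of the list moved with exon length. Of the 15 genes with under 2000 bases of exon, 11 had a log2 difference below 0, as had 13 of the 27 longer genes. Spearman's rho of exon length with the log2 difference was 0.471 over the 42 genes and 0.19 over all genes, as a description of genes that share the same 6 libraries. Within libraries, rho of length with the deviation of a gene from its mean log2 CPM ran to 0.231, -0.288 and -0.147 for the MA-10 libraries and lay between 0.163 and 0.192 for STARKO1. With offsets that take out this trend in each library, rho over the list was 0.211, and 3 of the 42 genes were called (7.14%), against 12.2% of all genes. These were *G6pc3*, *Hk2* (log2 difference 0.75, adjusted p = 0.0458) and *Eno3* (log2 difference 1.05, adjusted p = 0.0446). The short genes *Ldhb*, *Gapdh* and *Mpc2* then had log2 differences of -0.33, -0.11 and -0.11.

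**Figure D5:**
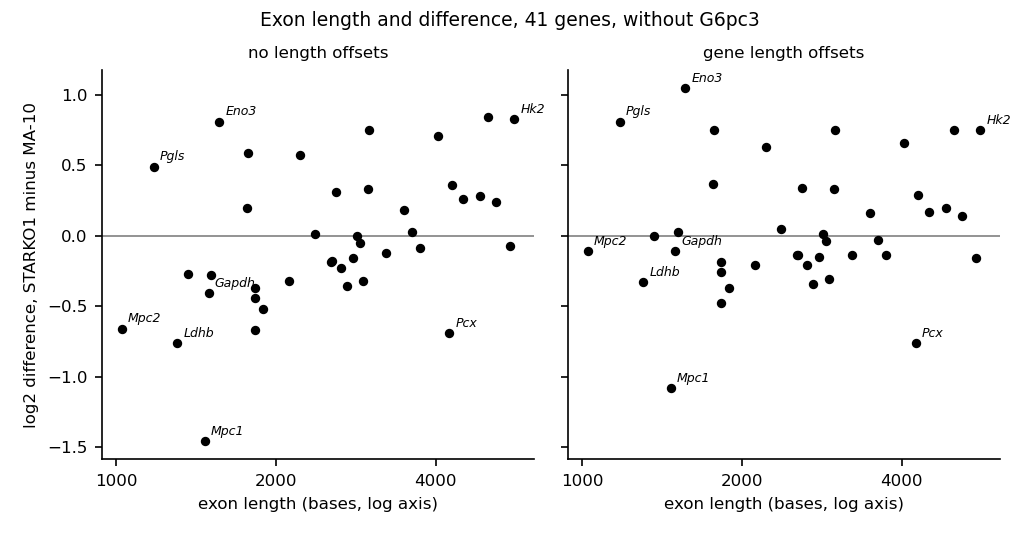
Exon length (horizontal axis, bases, log scale) and log2 difference, STARKO1 minus MA-10 (vertical axis), of 41 genes of the list without *G6pc3*, from the fit without length offsets (left) and with them (right). *Mpc1* is lowest in both panels, at -1.46 and -1.08, and *Mpc2* lies at -0.66 on the left and -0.11 on the right.

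The rest of the pathway and its neighbours were read from the same fit, and called genes are named. Of 6 glucose and lactate transporter genes tested, 1 was called lower and 1 higher, beside 4.74% and 4.3% of all genes. *Slc16a3*, which encodes the lactate exporter MCT4 of glycolytic cells, was lower in STARKO1, at 66, 76.2 and 43.5 CPM in MA-10 and 13.6, 14.7 and 10.3 CPM in STARKO1 (log2 difference -2.27 ± 0.265, SE, adjusted p = 0.00699). *Slc2a4*, the gene of the insulin-responsive glucose transporter GLUT4, was higher, at 2.52, 1.99 and 3.08 CPM in MA-10 and 7.44, 8.67 and 7.36 CPM in STARKO1 (log2 difference 1.62, adjusted p = 0.0128). The MA-10 and STARKO1 libraries were far apart for both, with MA-10 replicate 1 among the other MA-10 libraries. Without STARKO1 replicate 1 or 3 the adjusted p of *Slc16a3* was 0.0586 or 0.0535, and without STARKO1 replicate 1, 2 or 3 that of *Slc2a4* was 0.0788, 0.0918 or 0.0837. *Slc2a1*, the gene of the basal glucose transporter GLUT1, was not called (log2 difference -0.18, adjusted p = 0.663), nor was *Slc16a1*, which encodes the lactate carrier MCT1 (-0.08, adjusted p = 0.786).

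Of 11 other glycolysis and gluconeogenesis genes tested, 2 were called, beside 9.04% of all genes. The muscle-type fructose bisphosphatase gene *Fbp2* was lower, at 7.9, 11.2 and 6.25 CPM in MA-10 and 1.42, 1.77 and 0.899 CPM in STARKO1 (log2 difference -2.63, adjusted p = 0.00943). *Bpgm*, which makes 2,3-bisphosphoglycerate, was higher, at 6.81, 6.07 and 6.52 CPM in MA-10 and 10.1, 9.9 and 11 CPM in STARKO1 (log2 difference 0.67, adjusted p = 0.0498). Of 8 glycogen genes 1 was called, the muscle glycogen phosphorylase gene *Pygm*, at 0.916, 1.13 and 0.881 CPM in MA-10 and 2.67, 2.59 and 3.03 CPM in STARKO1 (log2 difference 1.5, adjusted p = 0.024). These genes did not overlap between the lines. The call of *Fbp2* was lost without STARKO1 replicate 1 (adjusted p = 0.074) or 3 (adjusted p = 0.0586). *Bpgm* lay at the threshold. It was also called by DESeq2 (adjusted p = 0.0079), with length offsets (0.0392) and without MA-10 replicate 1 (0.00192). Its adjusted p was between 0.0502 and 0.0984 under other scalings and filters and between 0.0881 and 0.219 without any other library. *Pygm* had an adjusted p of 0.0886 without MA-10 replicate 3 and of 0.124, 0.13 and 0.159 without STARKO1 replicate 1, 2 or 3.

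In the tricarboxylic acid cycle, which takes up the acetyl-CoA, none of 18 genes was called by edgeR, while 5 had an unadjusted p under 0.05 and DESeq2 called 3, all lower. The most abundant of them, *Mdh2*, had a log2 difference of -0.13 (adjusted p = 0.613). None of 5 other pentose phosphate genes was called (1 with an unadjusted p under 0.05 and 1 by DESeq2), where *Prps2* was most abundant (adjusted p = 0.93). None of 4 other pyruvate entry genes was called (2 and 2), where *Pdhx* was most abundant (adjusted p = 0.11). Among 14 hypoxia-response factors and targets outside glycolysis, 2 were called, both lower, beside 9.04% of all genes. The list did not move one way, with 8 log2 differences above 0 and 6 below, a median of 0.05, and 4 genes called higher and 4 lower without MA-10 replicate 1. Of the 14, 5 lay lower in STARKO1 without overlap and 2 higher, beside 21% and 21.5% of all genes. DESeq2 called 4 lower and 1 higher, beside 17.4% and 11% of all genes. The 2 higher without overlap were *Adm* and *P4ha2*, with log2 differences of 1.36 (adjusted p = 0.116) and 0.74 (adjusted p = 0.115). The 5 lower were *Bnip3* (-1.94, adjusted p = 0.0693), *Vegfa* (-0.68, adjusted p = 0.0768), *Arnt* (-0.24, adjusted p = 0.267) and the 2 called genes. *Hif1a*, the factor that drives glycolytic genes when oxygen is low, was at 578, 576 and 910 CPM in MA-10 and at 331, 303 and 327 CPM in STARKO1 (log2 difference -1.10, adjusted p = 0.043). The call of *Hif1a* was lost with upper quartile scaling (adjusted p = 0.0569), with library size alone (0.177) and with at least 10 counts in every library (0.0502). *P4ha1*, a collagen prolyl hydroxylase gene, was at 319, 785 and 617 CPM in MA-10 and at 186, 183 and 152 CPM in STARKO1 (log2 difference -1.72, adjusted p = 0.0329). With 1 library left out, both were called only without MA-10 replicate 1, and the adjusted p without any other library was between 0.0535 and 0.205 for *Hif1a* and between 0.0625 and 0.179 for *P4ha1*. Of the germ cell isozymes of glycolysis, 1 of 5 was found, *Aldoart1*, at 0.0867 to 0.515 CPM in MA-10 and 0.337 to 0.707 CPM in STARKO1. It was too low to pass the filter on low counts with all 6 libraries. Without MA-10 replicate 1 it was tested and called higher (log2 difference 2.05, adjusted p = 0.0342), beside 34% of all genes. MA-10 replicates 2 and 3 had 1 and 2 counts of it, under the floor of 3.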

How the data were processed

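RNA of 3 MA-10 and 3 STARKO1 libraries was made into stranded total RNA libraries with the SMARTer Pico V2 kit. The authors deposited estimated counts per gene, not normalized, 1 column per library, and for 54.2% of the 14774 genes they include fractions of a read. The submitters' processing notes name STAR 2.6.1d, Partek and mm10. The counting program, its handling of strand and shared reads, and a test for these counts are not given in the sources used here.

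Here they were rounded, and edgeR 4.0.16 was run in R 4.3.3 (filterByExpr, TMM, glmQLFit, glmQLFTest, two-sided, Benjamini-Hochberg over all genes tested, called at an adjusted p under 0.05). The SE is the log2 difference over the square root of F. Alternatives were DESeq2 1.42.0, upper quartile scaling, library size alone, factors without the 50 most abundant genes, no filter on low counts, a minimum of 10 counts per library, the replicate number as a block (replicate block), offsets for gene length (a lowess trend per library) with and without the block, and leaving out each library. Exon lengths came from GENCODE M21, in which 14677 genes were found by symbol and chromosome, and promoters from RefSeq. Ratios and levels were made with Python 3.11.15 and pandas 2.3.3, and figures with matplotlib 3.10.9. The common biological coefficient of variation was 0.291, which is above the counting error of most genes. It is not above that of genes with few counts in a library, such as *G6pc3* in STARKO1 and *Eno2* in replicate 2 of either line (6 and 8 counts). Floors cover counting error only.

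The genes of the list, the other lists and the tests were chosen with earlier results of these data known. Values per library are given for genes called, for the most abundant gene of each step and for isozymes compared as ratios. *Gapdh*, *Pfkfb2*, *Mpc2*, *Dlat*, *Pcx*, *G6pdx*, *Slc2a1*, *Slc16a1*, *Adm*, *P4ha2*, *Bnip3*, *Vegfa*, *Arnt*, *Cyp17a1*, *Nr5a1*, *Fdxr*, *Gm26917*, the neighbours of *G6pc3* and the ratio of *Star* to *Gapdh* were added after their values were seen. The scripts were tested on simulated data.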

Additional observations from a re-analysis of the deposited data

How the results depend on the processing

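Of 376 values of the listed genes under alternatives that kept all 6 libraries, 331 kept their direction and side of the threshold, 9 passed it in addition and 36 changed sign. With 1 library left out, 205 of 252 were the same, 22 passed in addition, 3 (all *G6pc3*) no longer passed and 22 changed sign. *Star* stayed called and negative in every alternative, from -5.23 to -4.76 with 1 library left out. The number of all genes called, 1079, was 3395 with DESeq2, 330 with library size alone, 695 with at least 10 counts in every library, 234 with the replicate block, 259 with length offsets and the block, and 89 to 7990 with 1 library left out. The number of listed genes called, 1, was 8 with DESeq2, 3 with length offsets and 0 with at least 10 counts in every library, where *G6pc3* and *Eno2* could not be tested, and 0 to 23 with 1 library left out. The cause of the differences between tools was not tested.

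Scaling by library size alone moved the median of all genes by 0.43. The log2 difference then changed sign for *Gpi1* (0.38), *Pfkl* (0.31), *Gapdh* (0.08), *Pgk1* (0.08), *Eno1* (0.25), *Eno2* (0.22), *Pfkfb3* (0.35), *G6pdx* (0.20), *Rpia* (0.03), *Rpe* (0.08), *Tkt* (0.29), *Taldo1* (0.13), *Pdha1* (0.43), *Pdhb* (0.24), *Dld* (0.30), *Pdk3* (0.13) and *Pgm1* (0.07). Upper quartile scaling gave 0.09 for *Gpi1*, 0.05 for *Pfkl*, 0.08 for *Pfkfb3*, 0.01 for *Tkt* and 0.15 for *Pdha1*. Without a filter, *Gpi1* had 0.00 and *Pdha1* 0.06. *Pdha1* had 0.02 with DESeq2, 0.03 without the 50 most abundant genes or with at least 10 counts, and 0.01 with the block. Length offsets gave 0.00 for *Taldo1*, 0.01 for *Pdha1*, 0.03 for *Pdhb* and -0.03 for *Me1*, and with the block 0.07, 0.02, 0.04 and -0.01. With 1 library left out, ranges that crossed 0 were -0.24 to 0.13 for *Gpi1*, -0.30 to 0.20 for *Pfkl*, -0.01 to 0.51 for *Tpi1*, -0.57 to 0.12 for *Eno2*, -0.21 to 0.08 for *Pfkfb3*, -0.19 to 0.05 for *Tkt*, -0.11 to 0.13 for *Pdha1*, -0.15 to 1.03 for *Pdk4*, -0.01 to 0.19 for *Me1* and -0.19 to 0.32 for *Pgm2*.

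The replicate numbers are shared by the lines, but same-numbered libraries did not deviate together (mean correlation 0.0133, against -0.00579 for other pairs), so the numbers were not taken as pairs. With the replicate block *G6pc3* remained the called gene of the list (adjusted p = 0.0273). Of the other genes named as called, *Slc2a4* (adjusted p = 0.0562), *Bpgm* (0.128), *Pygm* (0.0932), *Hif1a* (0.106) and *P4ha1* (0.0824) were not called with it.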
